A study of Drosophila melanogaster with 15 samples.

Results

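The comparison set 3 arrays of cyc0 pacemaker neurons against 3 arrays of per0 pacemaker neurons, 6 of the 15 arrays of the series, chosen by the genotype and time given in their titles. The cells were ventral lateral neurons (LNvs), of which a Drosophila larval brain has 8, sorted by fluorescence from dissociated L3 brains at zeitgeber time (ZT) 15, that is 3 h into the dark part of a cycle of 12 h light and 12 h dark. The cyc0 larvae were labelled yw, Pdf-RFP, cyc0, and the per0 larvae yw, per0; Pdf-RFP, so both lines carried yellow and white mutations and a red fluorescent protein driven by the Pdf promoter. The remaining arrays, 3 each, were wild-type LNvs at ZT15, wild-type LNvs at ZT3 (both yw with Pdf-Gal4 and UAS-GFP) and neurons labelled through elav-Gal4 and UAS-GFP at ZT15. Wild-type and mutant LNvs therefore differ in reporter as well as genotype, whereas cyc0 and per0 do not differ in reporter type. The order of the transgenes is written differently for the mutant lines, and whether the same Pdf-RFP insertion and background were used is not given in the labels. Each array held amplified RNA of about 1000 sorted cells from pooled brains.

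The Drosophila clock is a feedback loop of transcription. The proteins CLOCK and CYCLE (CYC) bind together to the promoters of period (per), timeless (tim), vrille (vri), PAR-domain protein 1 (Pdp1) and clockwork orange (cwo) and activate them, and PERIOD (PER), with TIMELESS, later returns to the nucleus and inhibits CLOCK and CYC. A cyc0 fly lacks the activator, and a per0 fly lacks the repressor. Both mutants are behaviourally arrhythmic, and the comparison between them sets apart the opposite states of the loop while both have no running clock. In the larval brain the LNvs are the main clock neurons, they secrete the neuropeptide Pigment-dispersing factor (Pdf), and they set rhythms of light avoidance.

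Values are log2 GCRMA levels as deposited, and on that scale transcripts too dim to rise above background lie close to its lower end. Between 4043 and 5110 probe sets per array reached log2 4 in cyc0 and between 3694 and 5436 in per0, of 18769 other than controls. The group means of 4455 and 4471 differed by less than the spread between arrays (exact permutation test, two-sided, p = 1, where 0.1 is the smallest p that 3 arrays against 3 can give). The marker of the sorted cells, Pdf, read 12.93, 12.80 and 12.37 on the cyc0 arrays, against 13.07, 12.93 and 13.05 on the per0 arrays, while the elav arrays read 3.06, 3.57 and 4.49. The reporter was driven by the Pdf promoter, so this checks the sort and is no finding. The third cyc0 array stood apart from its group: across probe sets it correlated with the other cyc0 arrays at Pearson's r = 0.84 and 0.73, against 0.89 between those arrays and 0.87 to 0.92 among per0 arrays. The correlations within other groups were also lower than in per0, at 0.78 to 0.86 in wild type at ZT15 and 0.80 to 0.83 among elav arrays. Results that lost their call without the third cyc0 array are given below with and without it. Neither mutated gene's transcript checks the labels, because a null allele can still be transcribed. The cyc probe set read 3.84, 4.86 and 5.42 in cyc0, against 5.47, 3.69 and 5.52 in per0, and the groups overlapped.

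Between cyc0 and per0, 46 of 5829 probe sets tested (0.789%) differed at an adjusted p below 0.05 in limma with Benjamini-Hochberg adjustment over all of them. Of these, 20 were higher in cyc0 (0.343%) and 26 were lower (0.446%), and on all 46 the 3 cyc0 arrays lay wholly above or below the 3 per0 arrays. Over all named genes tested, 7.71% had cyc0 arrays wholly above and 6.46% wholly below the per0 arrays. After quantile normalization of the arrays the split was 44 higher and 31 lower, and with no filter on low values it was 14 and 10. By gene, 35 of the 4721 named genes tested passed (0.741%), 15 higher (0.318%) and 20 lower (0.424%), with each gene represented by its brightest probe set. At an unadjusted p below 0.05, 452 of the 4721 named genes passed (9.57%). Of the 35 calls, 22 were lost with no filter on low values, 19 in a fit to the 6 mutant arrays alone and 24 in a test against a minimum log2 difference of 1. Glut1 passed on another of its probe sets only. The remaining 7 probe sets that passed had no single gene symbol here, and the farthest of them was lower by a log2 difference of -5.82. For 14 of the 26 lower probe sets all cyc0 arrays were under log2 4 and all per0 arrays at or above it, and 5 of the 20 higher ones showed the reverse. In such cases the fold is given as "at least", taken from the brighter group's mean to log2 4, a working level that is not a measured detection limit. In sorted cells pooled in this way, fewer cells that carry a transcript and less transcript per cell cannot be told apart. Without the third cyc0 array 33 probe sets passed, 17 higher and 16 lower, and 29 of them were among the 46. By gene 13 of the 35 calls were lost without it (sNPF, HisT, Pka-R1, PGRP-LF, Irk1, Arc1, GstD1, sn, Ppcs, Gart, CG13054, Sply and ome), with adjusted p between 0.075 (sn) and 0.173 (GstD1). Without cyc0 array 1 or per0 array 1, 2 or 3, 20, 27, 29 and 26 passed, and without cyc0 array 2, 67 passed.

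**Figure D1:**
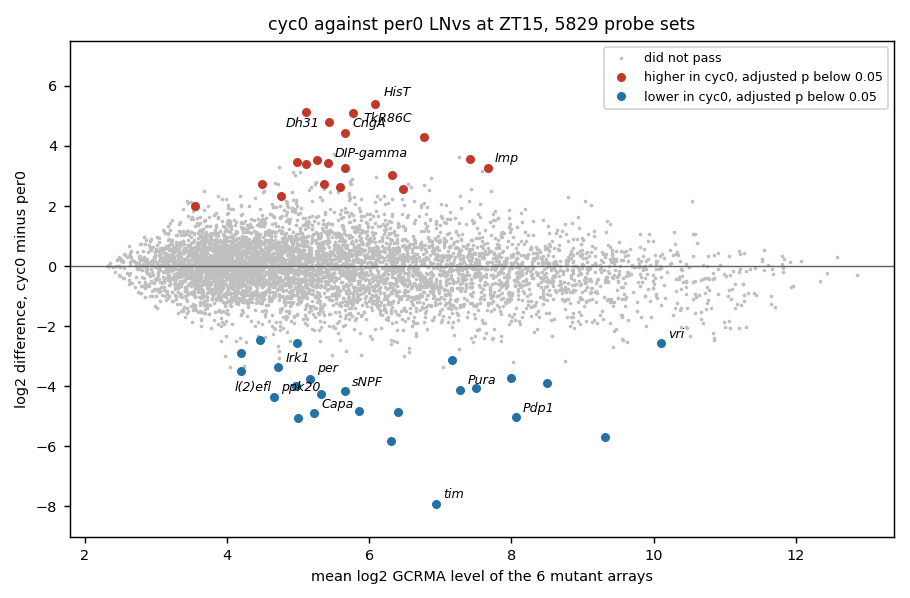
Each point is 1 of 5829 probe sets, placed by its mean log2 level over the 6 mutant arrays and by its log2 difference, cyc0 minus per0. The 20 coloured points above 0 and the 26 below 0 passed the test, with tim lowest at -7.91 and HisT highest at 5.41.

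The direct targets of the clock's activator were lower in cyc0. Of the 5 targets in the loop, all tested, 4 were lower and none was higher (0.424% and 0.318% of all named genes). Their median log2 difference was -3.75, against -0.04 over all named genes tested. The arrays of tim, whose protein partners PER, read 2.88, 2.85 and 3.21 in cyc0, against 11.08, 10.84 and 10.76 in per0. Every cyc0 array was near the floor of the scale, and tim was at least 119-fold lower in cyc0 (log2 difference -7.91, SE 0.55, limma adjusted p = 2.25e-07). A second tim probe set differed by -5.04. In the wild type tim averaged 10.89 at ZT15 and 2.97 at ZT3, so the per0 mean of 10.89 equalled the ZT15 level and the cyc0 mean of 2.98 lay beside the ZT3 level.

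The transcript of per, the repressor gene itself, read 2.92, 3.39 and 3.55 in cyc0, against 8.11, 5.4 and 7.61 in per0. It was at least 8.22-fold lower in cyc0 (limma adjusted p = 0.0134). The wild-type arrays read 6.11, 6.92 and 8.69 at ZT15, against 3.24, 3.88 and 3.74 at ZT3. Leaving out cyc0 array 1, per0 array 1 or per0 array 3 took the adjusted p of per to 0.0861, 0.0824 and 0.0743. The bound was 5.67-fold, 14.5-fold and 6.75-fold without per0 array 1, 2 and 3. The per call was also lost with no filter on low values and in the fit to the 6 mutant arrays.

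Pdp1 and vri encode bZIP factors that act on the Clk gene in opposite ways, Pdp1 as activator and vri as repressor. Pdp1 read 4.37, 5.60 and 6.69 in cyc0, against 10.95, 10.90 and 9.88 in per0, a log2 difference of -5.02 (SE 0.69, limma adjusted p = 0.000761) with no overlap. The cyc0 mean of 5.55 was also below the wild-type ZT3 mean of 7.29. For vri the levels were 8.34, 8.48 and 9.66 in cyc0, against 11.53, 11.42 and 11.22 in per0. Unlike tim and per, vri thus stayed far above background in cyc0, and its difference of -2.57 (SE 0.55, limma adjusted p = 0.0307) was the smallest of the 4. The vri call was lost without cyc0 array 1 (adjusted p = 0.211), cyc0 array 2 (0.0672) or per0 array 1, 2 or 3 (0.126, 0.0989 and 0.085), and after centring or quantile normalization. The fifth target, cwo, a transcriptional repressor of the same promoters, read 4.86, 6.86 and 4.70 in cyc0, against 7.0, 6.24 and 7.58 in per0. The cwo arrays overlapped and the difference of -1.47 (95% interval -3.44 to 0.50) did not pass (limma adjusted p = 0.651).

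**Figure D2:**
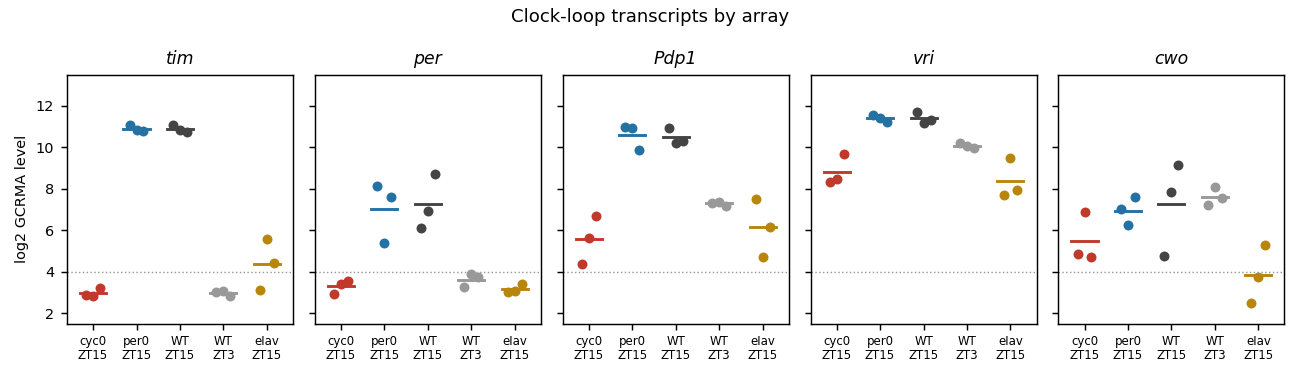
Log2 GCRMA level of 5 clock-loop transcripts on each array (points) with group means (bars). Groups run from cyc0 to per0, wild type at ZT15, wild type at ZT3 and elav neurons. The dotted line is log2 4. The cyc0 arrays of tim lie between 2.85 and 3.21 and the per0 arrays between 10.76 and 11.08, while the cwo arrays of the mutants overlap.

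Of the other clock factors, kinases and ubiquitin ligases, 12 of the 14 on the array were tested and none passed in either direction in limma, also at an unadjusted p below 0.05, with a median difference of 0.02. Cryptochrome (cry), the blue-light receptor of the clock, read 7.05, 9.08 and 4.53 in cyc0, against 8.92, 6.13 and 8.08 in per0, a spread wider than the difference of -0.82 (95% interval -2.78 to 1.14). Cipc, a homologue of a mammalian inhibitor of CLOCK, read 5.54, 5.23 and 6.31 in cyc0, against 8.28, 6.21 and 7.12 in per0. The Cipc difference of -1.51 did not pass (limma adjusted p = 0.545), although its wild-type levels were 10.27, 9.80 and 10.46 at ZT15, against 3.87, 5.76 and 7.47 at ZT3 (adjusted p = 0.00805). The Clk probe set stayed under log2 4 on every mutant array, with highest values of 3.53 in cyc0 and 2.71 in per0, and was not tested.

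Neuropeptide genes moved in both directions. Of 21 on the array other than Pdf, 8 were tested, with a median difference of 0.15. Of these 8, 1 was higher in cyc0 and 2 were lower (0.318% and 0.424% of all named genes). Short neuropeptide F (sNPF), a peptide that can lower the excitability of neurons it acts on, read 3.80, 3.73 and 3.20 in cyc0, against 7.53, 8.45 and 7.25 in per0. All cyc0 arrays were under log2 4, and sNPF was at least 13.4-fold lower in cyc0 (limma adjusted p = 0.0176). Each array left out in turn other than cyc0 array 2 ended the sNPF call, with adjusted p between 0.0505 (without per0 array 3) and 0.0989 (without per0 array 2), and of 0.0827 without cyc0 array 3. Diuretic hormone 31 (Dh31), a calcitonin-related peptide made by several groups of brain neurons, went the other way, at 7.62, 8.86 and 7.06 in cyc0, against 2.43, 2.57 and 4.13 in per0. Its log2 difference of 4.80 (SE 0.67, limma adjusted p = 0.000856) kept its call under all 16 alternatives. Wild-type LNvs held the same opposed pair: sNPF averaged 7.03 at ZT15 and 2.98 at ZT3, and Dh31 averaged 2.44 at ZT15 and 6.85 at ZT3. Capa, the precursor of the CAPA peptides of neurosecretory cells, read 2.80, 2.68 and 2.84 in cyc0, against 9.14, 8.74 and 5.14 in per0, at least 12.8-fold lower in cyc0 (limma adjusted p = 0.00188). The bound was 7.69-fold without per0 array 1 and 30.7-fold without per0 array 3, and in the fit to the 6 mutant arrays the Capa call was lost (adjusted p = 0.118). Unlike the other pair, Capa lay at the floor in wild type at both times, with means of 2.61 at ZT15 and 2.62 at ZT3, so the per0 arrays were the ones set apart. Nplp1, another peptide precursor, averaged 7.84 in cyc0 and 9.82 in per0 and did not pass (adjusted p = 0.396).

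Among receptors for peptides and amines, 1 of 9 tested was higher in cyc0 and none was lower (0.318% and 0.424% of all named genes). TkR86C, a receptor of the tachykinin family, read 7.78, 8.87 and 8.28 in cyc0, against 3.18, 3.31 and 3.17 in per0. It was at least 19.9-fold higher in cyc0 (log2 difference 5.09, SE 0.56, limma adjusted p = 7.22e-05), and no setting tried removed the call. Its means of 3.28 at ZT15 and 3.57 at ZT3 in wild type put cyc0 alone at a high level. The serotonin receptor gene 5-HT1A read 4.11, 5.51 and 3.59 in cyc0, against 8.38, 5.51 and 8.20 in per0. The second array of each group gave the same value for 5-HT1A, and its difference of -2.96 did not pass (adjusted p = 0.0731). The receptors for sNPF and Dh31, sNPF-R and Dh31-R, differed by 0.28 and -0.29 (adjusted p = 0.973 and 0.932). The 9 tested genes that process peptides or build dense-core vesicles gave no limma call (2 at an unadjusted p below 0.05), with a median of 0.28. The prohormone convertase gene amon read 11.74, 11.79 and 11.36 in cyc0, against 9.82, 9.27 and 9.27 in per0, a difference of 2.18 that did not pass (adjusted p = 0.411).

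Of the 9 potassium channel genes tested, 1 was lower in cyc0 and none was higher (0.424% and 0.318% of all named genes). Irk1, an inward rectifier that holds neurons near the potassium potential, read 3.84, 2.63 and 2.64 in cyc0, against 6.42, 6.15 and 6.62 in per0, at least 5.27-fold lower in cyc0 (limma adjusted p = 0.0163). Wild-type Irk1 read 9.50, 7.59 and 6.58 at ZT15, against 4.12, 3.04 and 4.13 at ZT3. Without cyc0 array 3, per0 array 1 or per0 array 3 the adjusted p of Irk1 was 0.0788, 0.0638 and 0.0743. Ih, which carries the hyperpolarization-activated current, lay the other way, at 8.08, 7.81 and 7.80 in cyc0, against 6.25, 3.64 and 5.63 in per0, and did not pass (difference 2.72, adjusted p = 0.11). The 8 sodium, calcium and other cation channel genes tested gave no limma call, with differences between -0.83 and 1.48. At an unadjusted p below 0.05, 1 of the 8 passed, against 9.57% of all named genes.

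Channels outside those lists passed in both directions. CngA, a subunit of cyclic-nucleotide-gated channels, read 8.38, 7.63 and 7.64 in cyc0, against 2.94, 3.12 and 4.26 in per0 (log2 difference 4.44, SE 0.85, limma adjusted p = 0.0157). Leaving out cyc0 array 1, per0 array 1 or per0 array 2 took the CngA adjusted p to 0.102, 0.0738 and 0.0759. The ppk20 gene, of the degenerin and epithelial sodium channel family, read 2.76, 2.34 and 2.34 in cyc0, against 6.77, 6.52 and 7.21 in per0. It was at least 7.13-fold lower in cyc0 (limma adjusted p = 5.46e-05), and the call was kept under all 16 alternatives (adjusted p up to 0.00889). As with Capa the per0 arrays alone were high, since wild type averaged 2.34 at ZT15 and 2.54 at ZT3. Of the 11 receptors for fast transmitters and their metabotropic relatives, none passed in limma (3 at an unadjusted p below 0.05, against 9.57% of all named genes). Among them the GABA-A receptor genes Rdl and Lcch3 had differences of 2.34 and 1.96 without overlap between the arrays (adjusted p = 0.273 and 0.313). Of all named genes, 7.71% had the cyc0 arrays wholly above the per0 arrays.

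**Figure D3:**
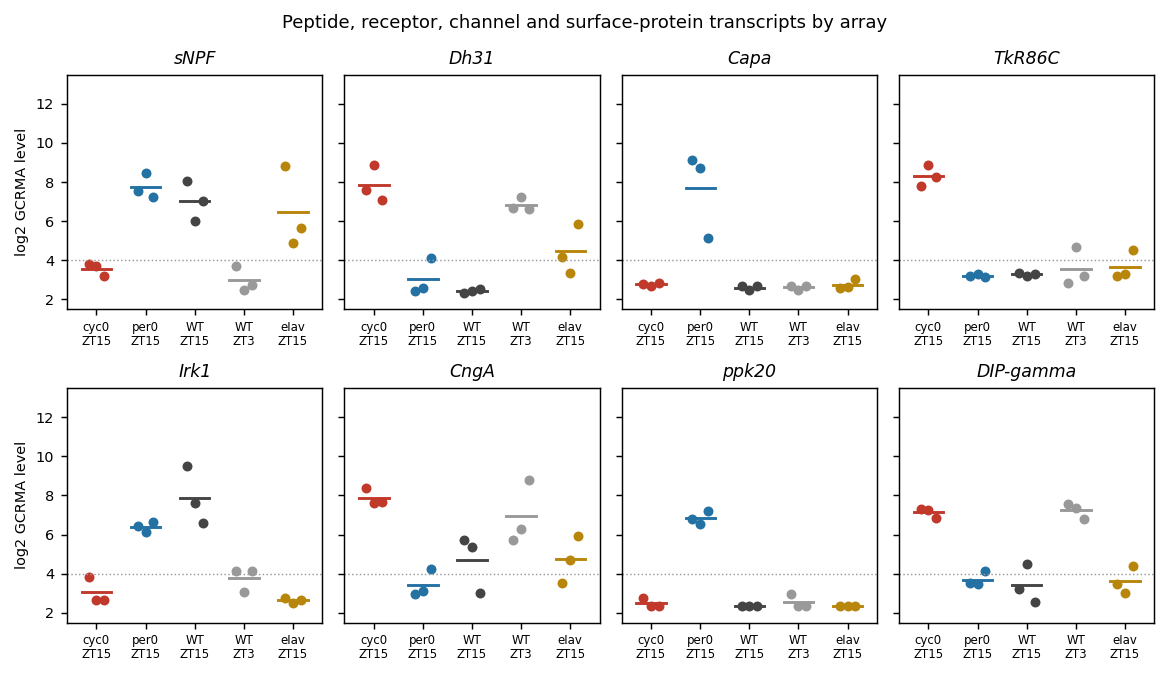
Log2 GCRMA level of 8 transcripts on each array (points) with group means (bars), groups ordered from cyc0 to per0, wild type at ZT15, wild type at ZT3 and elav neurons, with a dotted line at log2 4. For sNPF, Dh31 and DIP-gamma the wild-type ZT3 arrays lie on the same side of the per0 arrays as the cyc0 arrays do, TkR86C is high in cyc0 alone, and Capa and ppk20 are high in per0 alone.

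Second-messenger signalling gave a single call among the genes listed. Of 10 genes for cAMP and calcium signalling tested, 1 was higher in cyc0 and none was lower (0.318% and 0.424% of all named genes). Pka-R1, a regulatory subunit that holds protein kinase A inactive until cAMP binds, read 6.38, 7.16 and 6.67 in cyc0, against 4.19, 3.26 and 4.52 in per0 (log2 difference 2.74, SE 0.63, limma adjusted p = 0.0499). That call sat at the threshold: each of the 6 arrays left out in turn ended it, with adjusted p from 0.0823 (without cyc0 array 2) to 0.254 (without per0 array 2), and 0.128 without cyc0 array 3. The catalytic subunit gene Pka-C3 had a difference of -2.49 and did not pass (adjusted p = 0.0972). Pura, a guanine nucleotide exchange factor, read 4.15, 5.34 and 6.19 in cyc0, against 9.19, 9.27 and 9.54 in per0. The Pura difference of -4.11 (SE 0.54, limma adjusted p = 0.000723) passed under every setting. The gene sn, for the actin-bundling protein fascin, named after its values were seen, was higher in cyc0, at 7.60, 7.98 and 7.73, against 5.15, 4.95 and 5.48 in per0 (limma adjusted p = 0.0231, or 0.075 without cyc0 array 3). Each array left out in turn took the adjusted p of sn to between 0.0515 (without cyc0 array 2) and 0.0989 (without per0 array 2).

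The dpr and DIP genes encode immunoglobulin surface proteins that pair between neurons and their partners. Of these genes 1 of 14 tested was higher in cyc0 and none was lower (0.318% and 0.424% of all named genes). DIP-gamma read 7.33, 7.23 and 6.84 in cyc0, against 3.53, 3.46 and 4.11 in per0 (log2 difference 3.44, SE 0.56, limma adjusted p = 0.00352). In wild type DIP-gamma read 3.22, 4.47 and 2.53 at ZT15, against 7.55, 7.38 and 6.77 at ZT3, and the ZT3 arrays spanned the cyc0 range. The 22 other adhesion and surface genes tested gave no limma call (5 at an unadjusted p below 0.05, against 9.57% of all named genes), with a median of -0.61, or -0.39 without cyc0 array 3. The 8 Ly6-domain genes gave none either (1 unadjusted).

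Of 12 genes for hnRNP and related RNA-binding proteins tested, 1 was higher in cyc0 and none was lower (0.318% and 0.424% of all named genes). At an unadjusted p below 0.05 in limma, 5 of the 12 passed, against 9.57% of all named genes. Imp, which binds mRNAs and with Syp marks successive ages of neuroblasts and their neurons, read 9.49, 9.0 and 9.42 in cyc0, against 6.37, 5.38 and 6.32 in per0 (log2 difference 3.28, SE 0.58, limma adjusted p = 0.00813). Its other probe sets differed by 0.34 and 2.52 and did not pass, and without cyc0 array 1 or per0 array 2 the adjusted p of Imp was 0.0612 and 0.0545. Syp read 2.83, 4.53 and 3.22 in cyc0, against 5.41, 5.92 and 6.0 in per0, a difference of -2.25 that did not pass (adjusted p = 0.11). Hrb87F, an hnRNP protein gene, was high in both mutants, at 11.09, 10.91 and 11.11 in cyc0, against 11.14, 11.07 and 11.37 in per0 (difference -0.16, 95% interval -1.45 to 1.13). Its wild-type means were 5.48 at ZT15 and 5.48 at ZT3, and the elav mean was 11.78.

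The other genes lower in cyc0 were of mixed function. CG5953, with no role given here, read 6.46, 8.76 and 4.18 in cyc0, against 12.14, 12.07 and 12.24 in per0 (log2 difference -5.69, SE 0.85, limma adjusted p = 0.00168). The cyc0 arrays of CG5953 spread widely while the per0 arrays lay within a narrow band. The CG5953 call was lost with no filter (adjusted p = 0.0521) and in the fit to the 6 mutant arrays (0.0916). The gene ana encodes a secreted glycoprotein that holds larval neuroblasts in rest, and it read 3.01, 3.89 and 3.42 in cyc0, against 8.29, 7.69 and 8.81 in per0, at least 19.2-fold lower in cyc0 (limma adjusted p = 0.00256, or 0.0528 with no filter). For l(2)efl, which encodes a small heat-shock protein of the crystallin family, the levels were 6.63, 5.03 and 8.01 in cyc0, against 10.50, 10.42 and 10.41 in per0, a difference of -3.89 (limma adjusted p = 0.0176), and its second probe set differed by -3.98. Without cyc0 array 1 or 2, or any 1 of the per0 arrays, the adjusted p of l(2)efl lay between 0.0564 and 0.0861.

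CG45263 (difference -4.87, adjusted p = 0.00188) and mthl14, a receptor of the methuselah-like family (-3.99, adjusted p = 0.0149), were also among the 12 lower genes with the farthest differences. The mthl14 call was lost without cyc0 array 1, per0 array 1 or per0 array 3 (adjusted p = 0.107, 0.0872 and 0.0867). The remaining 6 lower genes are named here after their values were seen. They were GstD1, a glutathione S-transferase (-3.73), CG13054 (-3.50), Arc1, which forms capsids that carry RNA (-3.14), CG15745 (-2.90), ome, a dipeptidyl peptidase (-2.57), and Gart, an enzyme of purine synthesis (-2.46). Their limma adjusted p lay between 0.0192 (CG15745) and 0.0496 (Gart). Each of these 6 calls was lost when some single arrays were left out, among them cyc0 array 1 and per0 array 1 for all 6, with adjusted p without cyc0 array 1 between 0.127 (CG15745) and 0.304 (ome) and without per0 array 1 between 0.0747 (GstD1) and 0.22 (Gart). Without cyc0 array 3 the adjusted p was 0.173 for GstD1, 0.112 for CG13054, 0.103 for Arc1, 0.159 for ome and 0.106 for Gart.

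Among the other genes higher in cyc0, HisT had the largest difference. It read 9.25, 8.48 and 8.62 in cyc0, against 2.40, 3.11 and 4.59 in per0 (log2 difference 5.41, SE 1.20, limma adjusted p = 0.0408). Its wild-type ZT3 arrays spread over 2.77, 9.74 and 5.29, and each of the 6 mutant arrays left out in turn ended the HisT call, with adjusted p from 0.0611 (without cyc0 array 2) to 0.208 (without cyc0 array 1), and 0.119 without cyc0 array 3. Gfat1, the first enzyme of the hexosamine pathway, read 6.72, 6.67 and 7.71 in cyc0, against 3.98, 3.0 and 3.54 in per0, at least 8.19-fold higher in cyc0 (limma adjusted p = 0.00168), and the call was kept under all 16 alternatives (adjusted p up to 0.0388).

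PGRP-LF, a peptidoglycan-recognition protein that dampens the IMD immune pathway, read 4.86, 5.53 and 7.15 in cyc0, against 2.72, 2.88 and 3.76 in per0, at least 3.6-fold higher in cyc0 (adjusted p = 0.0307). The PGRP-LF call was lost without cyc0 array 3 (difference 2.08, bound 2.3-fold, adjusted p = 0.145), per0 array 1 (0.138) or per0 array 2 (0.128). Further genes with no role given here were CG32683 (difference 3.46, adjusted p = 0.00517, or 0.11 in the fit to the 6 mutant arrays), CG2082 (3.28, adjusted p = 0.0176) and CG7985 (3.03, adjusted p = 0.0192). CG2082 was lost without cyc0 array 1 or 2, or per0 array 1 or 2, at adjusted p of 0.0515 to 0.0989, and CG7985 without any single array other than cyc0 array 3, at 0.051 to 0.164. Genes named here after their values were seen were Ppcs, an enzyme of coenzyme A synthesis (2.62, adjusted p = 0.0307), and Sply, the sphingosine-1-phosphate lyase (2.33, adjusted p = 0.0436). For Sply each single array ended the call (0.051 to 0.242), and for Ppcs each except cyc0 array 2 (0.0743 to 0.221). Without cyc0 array 3 the adjusted p was 0.107 for Sply and 0.077 for Ppcs. The glucose transporter gene Glut1 differed by 2.50 on its brightest probe set (adjusted p = 0.0511) and by 3.41 on the other (adjusted p = 0.00716).

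Wild-type LNvs were also sampled at ZT15 and ZT3, on arrays that the cyc0 and per0 comparison does not share. Transcripts lower in cyc0 than in per0 were mostly higher at ZT15 than at ZT3. Of the 26 probe sets lower in cyc0, 18 had a higher mean at ZT15 (69.2%, against 45.8% of all probe sets tested) and 9 of them passed between the times. Over all probe sets, 25 (0.429%) passed as higher at ZT15 and 21 (0.36%) as higher at ZT3. Of the 20 probe sets higher in cyc0, 14 had a higher mean at ZT3 (70%, against 54.2% of all) and 2, those of Dh31 and DIP-gamma, passed. In 14 of the 26 all ZT15 arrays lay above all ZT3 arrays (6.04% of all probe sets), and in 4 of the 20 higher ones all ZT3 arrays lay above (8.73% of all). Together 32 of the 46 had differences of opposite sign (69.6%), and the share stayed between 63% and 76.9% when single arrays were left out. The count was 15 without cyc0 array 1, 17 without per0 array 1 and 20 without per0 array 3. With 1 probe set per gene, 24 of the 35 called had opposite sign (68.6%). A combined share over all probe sets is not given here, only the 45.8% and 54.2% by direction above. Of the 46, 11 passed in both comparisons, 23.9% of each list, and all 11 had opposite sign. The 11 were the 2 tim probe sets and those of Pdp1, sNPF, Pura, per, CG13054, Irk1, Dh31 and DIP-gamma, with 1 that has no single symbol. The comparisons share no array, but they share the estimate of each probe set's spread and the joint normalization. In separate fits to 6 arrays each, 21 probe sets passed between the mutants and 6 between the times, and the 3 that passed in both, for tim, Pura and Dh31, had opposite sign.

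**Figure D4:**
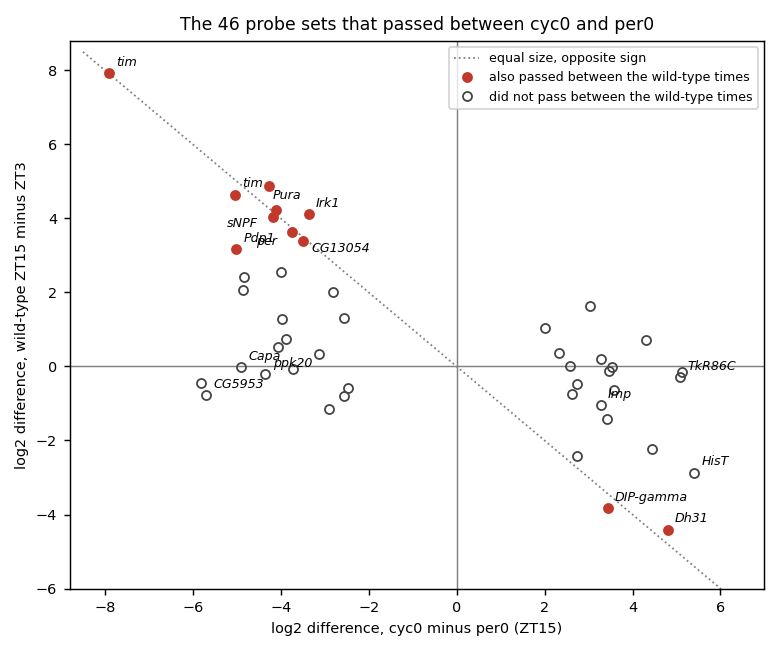
The 46 probe sets that passed between cyc0 and per0, placed by that log2 difference and by the wild-type log2 difference, ZT15 minus ZT3. Filled points also passed between the times: 9 lie at upper left and 2 at lower right, near the dotted line of equal size and opposite sign. Open points near 0 on the vertical axis, such as TkR86C and Capa, differ between the mutants without a matching difference between the times.

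The position of the wild-type means described which mutant lay farther from wild type, with each mean assigned to the nearer mutant mean and no test. For 17 of the 46 probe sets (37%, against 15.3% of all tested) wild type lay nearer per0 at ZT15 and nearer cyc0 at ZT3, and for none did it lie the other way (13.1% of all). These were tim, per, Pdp1, vri, sNPF, Irk1, Pura, mthl14 and CG13054 among the lower genes and Dh31, DIP-gamma, CngA, PGRP-LF and Glut1 among the higher. For 20 wild type lay nearer per0 at both times, which left cyc0 the farther mutant (43.5%, against 36.9% of all). Those included CG5953, ana, l(2)efl, Arc1, CG15745 and Gart, all lower, and TkR86C, HisT, Gfat1, CG32683, CG2082, CG7985, Pka-R1 and Sply, all higher. For 9 wild type lay nearer cyc0 at both times, leaving per0 the farther mutant (19.6%, against 34.8%). These were Capa, ppk20, CG45263, GstD1 and ome, higher in per0, and Imp, Ppcs and sn, lower in per0. The farther mutant was not always set apart from wild type. For sn at ZT15, cyc0 minus wild type was 1.22 and per0 minus wild type -1.36 (limma adjusted p = 0.214 and 0.212). For CG5953 these differences were -3.04 and 2.65 (limma adjusted p = 0.0598 and 0.143). At ZT15, the time at which the mutants were collected, wild type was nearer per0 for 37 of the 46 (80.4%, against 52.1%).

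Whether the mutant difference had the size of the time difference was tested directly, as cyc0 minus per0 less ZT3 minus ZT15. Over all probe sets 13 passed (0.223%) in limma, and none of the 11 that passed in both comparisons was among them, with adjusted p from 0.676 (Pdp1) to 0.998 (tim). For tim the differences departed from each other by 0.01 (SE 0.78), and for per, sNPF, Pura, Irk1, Dh31 and DIP-gamma by -0.13, -0.12, 0.11, 0.76, 0.39 and -0.39. The largest departure of the 11 was that of Pdp1, at -1.84 (SE 0.97). Because the 11 were chosen by passing in both comparisons of this fit, small departures were favoured. A departure that did not pass does not show equal size. For TkR86C, ppk20, CG5953, CG7985 and CG15745 the mutant difference did depart from the time difference (adjusted p = 0.0221, 0.00466, 0.0318, 0.0318 and 0.0483). These genes were read from those that passed between cyc0 and per0. That difference is itself a term of the departure, so large departures were favoured among them. Of the 46 probe sets that passed between the wild-type times, 4 departed, those of klg, Ntl, hoe1 and CG31675, of which Ntl and hoe1 are named after their values were seen. The time difference that chose these 46 is the other term of the departure, so large departures were favoured here as well. The levels of CG31675, a Ly6-domain gene, were 5.13, 5.79 and 3.16 in cyc0 and 4.34, 2.83 and 2.94 in per0, while wild type read 3.58, 2.79 and 4.13 at ZT15 and 9.15, 9.65 and 9.99 at ZT3. Neither mutant reached the ZT3 level of CG31675, and the departure was -4.78 (SE 0.94, adjusted p = 0.0471). The adhesion gene klg departed farther (-6.52, adjusted p = 0.0318), with means of 5.01 in cyc0 and 7.61 in per0 and of 4.71 at ZT15 and 8.63 at ZT3. Counts of such departures moved with single arrays: without cyc0 array 1, per0 array 2 or per0 array 3, 3 probe sets passed, and without per0 array 1, 6 passed.

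Most gene groups gave few or no calls. The 11 heat-shock and chaperone genes tested all had a lower mean in cyc0, with a median of -1.62 against -0.04 over all named genes, but only l(2)efl passed (7 at an unadjusted p below 0.05, against 9.57% of all named genes). After centring and quantile normalization the median was -1.64 and -1.38. Their mean log2 level was 8.97, 9.35 and 8.02 on the cyc0 arrays, against 10.60, 10.03 and 10.50 on the per0 arrays, and without cyc0 array 3 the median was -1.14. Hsp60A, the mitochondrial chaperonin, differed by -2.33 (adjusted p = 0.224) and Hsp26 by -1.26 (adjusted p = 0.366). In 6 of the 11 genes all cyc0 arrays lay below all per0 arrays, where 6.46% of all named genes did so.

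The cytoplasmic ribosomal protein genes gave no limma call among 33 tested (2 at an unadjusted p below 0.05), with a median of -0.67 and 29 negative differences. Their mean log2 level was 9.67, 10.55 and 8.22 on the cyc0 arrays, against 10.40, 9.93 and 10.48 on the per0 arrays. The third cyc0 array was the low one, and without it the median was -0.18. No limma call came from 55 oxidative phosphorylation subunits (median -0.29), 61 mitochondrial ribosomal proteins (-0.20), 26 translation initiation factors (-0.22), 25 proteasome subunits (-0.06) or 17 vacuolar ATPase subunits (-0.60). At an unadjusted p below 0.05 the counts were 5, 4, 1, 1 and 3, against 9.57% of all named genes, and without cyc0 array 3 the medians were -0.17, -0.09, -0.02, 0.25 and -0.13. The proteasome median also turned to 0.05 after quantile normalization. Among 14 pan-neuronal and synaptic vesicle genes none passed (1 unadjusted), with a median of -0.01, or 0.38 without cyc0 array 3. Of these elav, the pan-neuronal RNA-binding protein gene, read 7.66, 8.27 and 7.31 in cyc0, against 5.80, 5.00 and 6.38 in per0, without overlap (difference 2.02, adjusted p = 0.177).

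**Figure D5:**
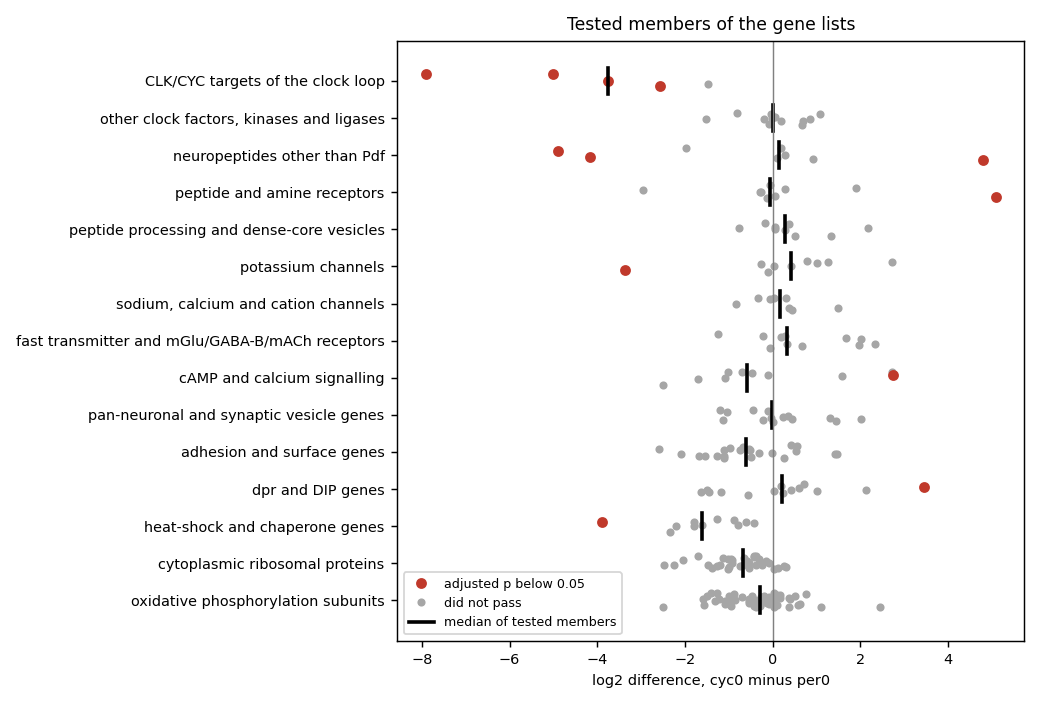
Log2 difference, cyc0 minus per0, of the tested members of 15 gene lists (points), with the median of each list (black bars). Coloured points passed the test. The clock-loop targets have a median of -3.75 and the heat-shock genes of -1.62. The neuropeptides, peptide and amine receptors and potassium channels have medians of 0.15, -0.07 and 0.42, with single members far out. The sodium, calcium and cation channels lie between -0.83 and 1.48, and the receptors for fast transmitters and their metabotropic relatives between -1.25 and 2.34.

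Markers of other cells were compared because a sort can hold them. The 4 neuroblast markers tested had a mean log2 level of 2.62 to 3.81 on the cyc0 arrays and 2.47 to 4.29 on the per0 arrays, against 5.26 to 6.98 on the elav arrays, and none passed in limma, also unadjusted. Of the 8 cell-cycle genes, 2 to 3 per array reached log2 4 in cyc0 and 2, 7 and 6 in per0, with no call (1 unadjusted). The 5 glial markers tested averaged 3.87 to 4.59 in cyc0 and 3.73 to 4.03 in per0, all 5 differences were positive (0.22 to 0.67), and none passed, also unadjusted. The 2 hemocyte markers tested averaged 4.03, 5.62 and 2.95 in cyc0, against 2.86, 2.99 and 2.64 in per0, and of them Col4a1 differed by 2.01 (adjusted p = 0.374; 1 of the pair passed unadjusted). The 2 fat body markers tested averaged 3.13 to 4.90 in cyc0 and 3.09 to 3.92 in per0, with no call at either threshold. No photoreceptor, muscle or antimicrobial gene of the lists reached log2 4 on the 3 arrays needed for a test. Some reached it on fewer arrays. The highest cyc0 values of the muscle gene bt and the antimicrobial genes Mtk and Drs were 6.48, 4.74 and 4.01. Their highest per0 values were 3.31, 2.42 and 2.32. In the other marker lists, the untested genes Hml and Pxn (hemocytes), gcm (glia) and dpn (neuroblasts) reached log2 4 in cyc0 only. Their highest values were 4.93, 4.1, 5.39 and 4.84 in cyc0, against 3.31, 2.34, 2.44 and 2.79 in per0. The untested hemocyte gene vkg and cell-cycle gene dup reached it in per0 only, at 4.25 and 4.11, against 3.77 and 3.94 in cyc0. The photoreceptor genes Arr1 and chp stayed under log2 4 on the mutant arrays. Imp was the 1 call among 6 markers of immature neurons, whose mean level was 5.30, 6.05 and 5.31 in cyc0, against 4.71, 4.6 and 5.74 in per0. The part of these cells in the differences above was not tested. Because a mutation can bring a stretch of linked genome with it, the 20 tested genes nearest cyc and the 20 nearest per were also read out. None of either set passed in limma, against 0.741% of all named genes. At an unadjusted p below 0.05, 1 of each 20 passed, against 9.57% of all named genes. With so few calls among all genes, sets of 20 without a call show little about linked genome.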

How the data were processed

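The deposited log2 values of 15 Affymetrix Drosophila arrays were used, for which the submitters' processing notes name GCRMA. GCRMA subtracts a sequence-based background and normalizes across arrays, and its version is not given in the sources used here. Of 18869 probe sets, 100 controls were left out; 13647 of the rest had 1 symbol, 402 several and 4720 none here. Probe sets at log2 4 or more in at least 3 arrays were tested (5829, for 4721 named genes). A mean per group was fitted to all 15 arrays with limma 3.58.1 in R 4.3.3 (median SE 0.66). The number of arrays limits the precision. P-values are two-sided with Benjamini-Hochberg adjustment, and 95% intervals are not adjusted. The named genes were up to 12 per direction that passed without overlap, a set of clock and LNv genes, and up to 4 of smallest p from each of 35 lists. The members and lists were chosen with earlier results of these data known. The fit was tested on simulated data. Alternatives were filters, scaling, priors, array weights, a fit to 6 arrays, a minimum fold, 1 probe set per gene, the replicate number as a block, and each array left out. The list values without cyc0 array 3, the separate fits and the test of mutant against time differences were added after seeing the data. 1 gene list is not reported here.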

Additional observations from a re-analysis of the deposited data

How the results depend on the processing

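No named gene reversed its sign past the threshold. Of the 35 genes called by their brightest probe set, 8 kept the call under all 16 alternatives (tim, Pdp1, Pura, CG45263, ppk20, Dh31, Gfat1 and TkR86C), and 22 lost it when some single array was left out. Departing counts below are over all probe sets tested, whether called between the mutants or not: 13 departed from the time difference, 8 of them among the 46 called. Against those 46 (20 higher and 26 lower in cyc0, 32 opposite in sign to the wild-type time difference), 24 were called with no filter (10 lower, 17 opposite, 6 departing), 75 after quantile normalization (44 higher, 51 opposite, 21 departing), 21 in the fit to 6 arrays (9 higher, 12 lower, 18 opposite) and 16 with a minimum fold (5 higher, 11 lower, 11 opposite, 2 departing). Array weights gave 817 (318 higher, 499 lower, 473 opposite, 91 departing), but their estimation stopped before convergence, with weights from 0.519 to 4.27. Leaving out single arrays gave 20 (without cyc0 array 1) to 67 (without cyc0 array 2) called, 8 to 17 higher, 11 to 52 lower, 15 to 48 opposite and 3 to 12 departing. The mean number of probe sets at log2 4 differed by -15, by 0 after quantile normalization, by 5 at log2 5, and by -404 to 467 when single arrays were left out. The deviations of arrays with the same replicate number from their group means correlated weakly (r of 0.08, -0.19 and 0.09 between cyc0 and per0). Over all pairs of groups r lay between -0.19 and 0.2, the highest between the second cyc0 and elav arrays. With 3 arrays per group these values cannot exclude that arrays of 1 number were handled together. With the replicate number as a block 40 probe sets were called (19 higher, 21 lower, 29 opposite, 7 departing), 38 of them among the 46. In that fit 5 named genes lost their call, vri among them. The causes of these shifts were not tested. The 3 arrays per group and levels near background limit what the smaller differences can show.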
